A study of Mus musculus with 8 samples.

Results

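The genes described here encode the nuclear subunits of the 4 respiratory chain complexes and of ATP synthase. They were taken by symbol from a table of 32499 genes, without pseudogenes. Stems were Nduf for complex I, Sdh for complex II, Uqcr for complex III, Cox4 to Cox8 for complex IV and Atp5 for complex V. Only set letters or digits could follow most stems, so some genes that share a stem, such as Ndufab1, Atp5o and Atp5s, were left out. Ndufa4 and Ndufa4l2 were placed in complex IV. The rule gave 81 genes, of which 35 belong to complex I, 4 to complex II, 8 to complex III, 20 to complex IV and 14 to complex V. The rule reads gene symbols only, but it was written with earlier results of these data known.

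RNA-seq was made from mouse neural progenitor cells of the neural tube at embryonic day 14, strain C57BL/6, as 4 libraries with the label 53BP1 KO and 4 with the label control. The KO embryos carried the targeted allele Trp53bp1tm1Jc from their mothers and a CRISPR-made in-frame deletion of the same gene from their fathers; the control embryos were wild type. Cells of both groups were sorted with NeuroFluor CDr3, a dye that marks neural progenitors. The labels do not say whether each library came from 1 embryo or from a pool, nor whether the sorted cells were used at once or after culture in differentiation medium, so p-values here reflect library-to-library spread only, and part of that spread may be technical.

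The respiratory chain sits in the inner mitochondrial membrane. Complexes I and II pass electrons from NADH and succinate to ubiquinone, complex III passes them on to cytochrome c, and complex IV (cytochrome c oxidase) hands them to oxygen; complexes I, III and IV pump protons, and ATP synthase uses the returning protons to make ATP. Most subunits are encoded in the nucleus and the rest in mitochondrial DNA. Several subunits of complex IV exist as a common form and a second form used in some tissues, such as the heart and skeletal muscle forms Cox6a2, Cox7a1 and Cox8b and the testis form Cox6b2. Neural progenitors draw much of their ATP from glycolysis, and neurons come to depend on the respiratory chain as they mature.

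Library totals were 20457680, 11081419, 18648457 and 24339621 counts in KO-labelled libraries 1 to 4, against 18062035, 18189045, 15343046 and 15580941 counts in controls 1 to 4. Trp53bp1 RNA averaged 27.1 ± 6.36 CPM (counts scaled to a common library size adjusted by TMM) in KO-labelled libraries and 26.8 ± 0.349 CPM in controls (SD, n = 4 each); a count over the whole gene does not test for an in-frame deletion. Every KO-labelled library had 9 to 16 counts of Xist and 579 to 1064 counts of the Y-linked gene Ddx3y, while every control had 23853 to 26134 counts of Xist and 0 of Ddx3y. Genotype label and sex therefore coincide in all 8 libraries and cannot be told apart in any result. The astrocyte markers Gfap, Aqp4 and S100b rose, and the list of 4 summed to 176 to 208 CPM in KO-labelled libraries and 34.7 to 48.0 CPM in controls. Of 7 marker genes of neural progenitors, the labelled cell type, Sox2, Pax6 and Hes5 rose and Nes and Vim fell. The 7 summed to 7642 to 10849 CPM in KO-labelled libraries and 8261 to 10603 CPM in controls. Most of these sums came from Fabp7, which was not called (mean 7793 CPM in KO-labelled libraries, 7591 CPM in controls). The part of these markers in the results was not tested. In bulk RNA, fewer cells of a type and less RNA per cell cannot be told apart.

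For most of the respiratory chain and ATP synthase genes the estimated difference between the groups was small. Of the 81 members, 77 had enough counts to be tested, and 16 of them (20.8%) passed an adjusted p of 0.05 (quasi-likelihood test in edgeR, Benjamini-Hochberg over all genes), against 30% of all 15021 genes tested. Of these, 15 (19.5%) rose in KO-labelled libraries, against 16.1% of all genes, and 1 (1.3%), Atp5a1, fell, against 13.9% of all genes. A further 61 did not pass, and 69 of the 77 had an absolute log2 fold change (KO-labelled over control) under 0.5. For 72 of the 77 the 95% interval of the log2 fold change lay within 1 of 0 on either side. Its upper limit lay under 0.5 for only 42 of the 77, so for the rest a rise of that size is not excluded. The 4 untested members Cox4i2, Cox7b2, Cox8c and Ndufa4l2 are all tissue or paralogous forms.

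The sign of the log2 fold change was positive for 63 of the 77 tested members and negative for 14, with a median of 0.18, against 0.00 over all genes tested. Among 7587 tested genes between the 10th and 90th percentile of the members' mean level the median was 0.01. The groups did not overlap for 7 members (9.09%), against 29.9% of all genes: 6 had every KO-labelled library above every control and 1 had every KO-labelled library below. The positive median was therefore made up of small differences in which the libraries of the groups mostly overlapped. The number of members with a positive sign ran between 52 (without KO-labelled library 3) and 67 (no filter on low counts) under 16 alternative settings of the test.

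**Figure D1:**
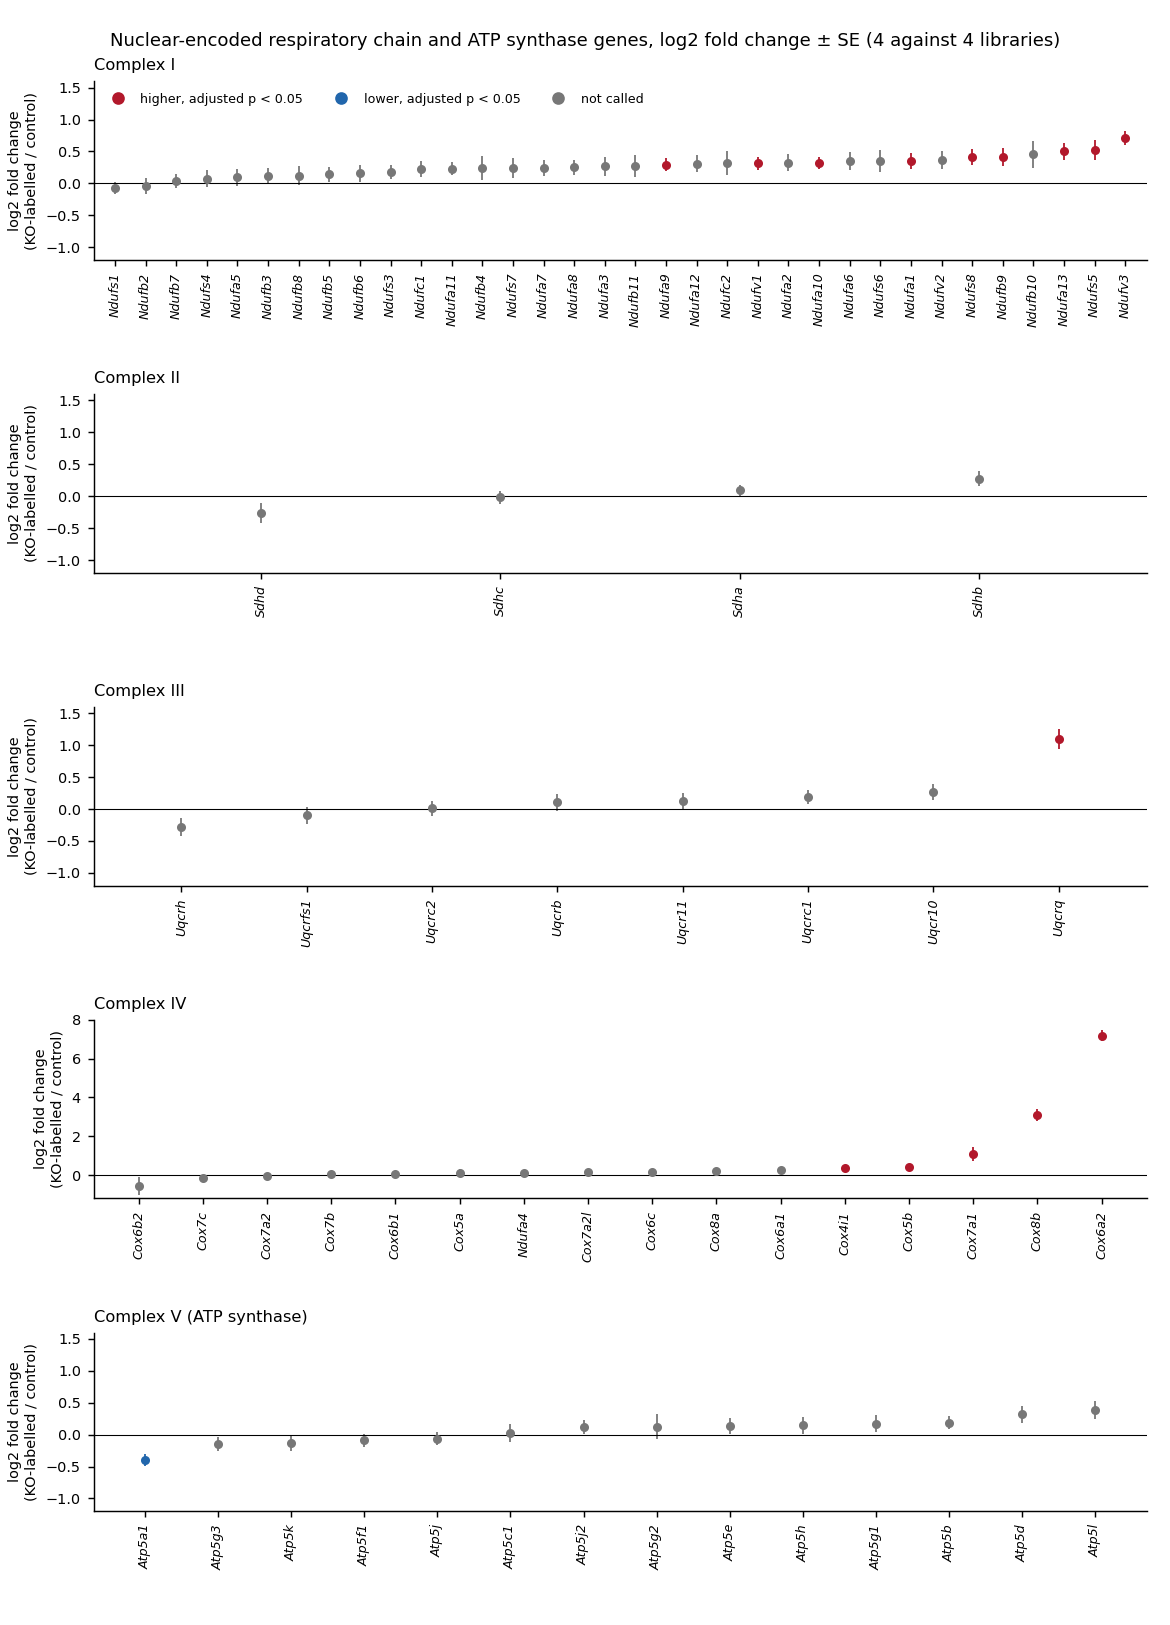
Log2 fold change (KO-labelled over control, vertical axis) ± SE of the tested members reported here, by complex, from 4 against 4 libraries; red marks genes called higher, blue genes called lower and grey genes that did not pass. The vertical axis of complex IV is longer because Cox6a2 lies at 7.16, and most points lie above 0.

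The 2 largest log2 fold changes among the members were in tissue forms of complex IV, Cox6a2 and Cox8b. Of the 8 tissue forms, 4 were tested and 3 of them rose, against 16.1% of all genes. These were Cox6a2, Cox8b and Cox7a1, the heart and skeletal muscle forms of 3 small subunits that surround the catalytic core. Cox6a2 passed the filter on low counts only through the KO-labelled libraries, and forms low in both groups were not tested. The share of tested forms that rose therefore depends in part on that filter. The testis form Cox6b2 did not pass the test. All 4 genes lie on chromosome 7, which holds 8 of the 81 members.

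Cox6a2 had 484, 252, 603 and 814 counts in KO-labelled libraries 1 to 4, against 1, 4, 4 and 4 counts in controls 1 to 4. Scaled to library size these were 23.8, 22.0, 34.0 and 34.1 CPM in KO-labelled libraries and 0.0548, 0.217, 0.258 and 0.259 CPM in controls. The gene was close to absent in every control and moderately expressed in every KO-labelled library, with no overlap. The log2 fold change was 7.16 ± 0.28 (SE; edgeR adjusted p = 5.73e-10), which ranked 7 among the 15021 genes, and the fitted fold of 143 rests on 13 counts in the controls. Its exons overlap those of Itgad on the opposite strand, and Itgad had 22 counts in KO-labelled libraries and 31 in controls in all.

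Its partner Cox6a1, the form used in most tissues, had 222, 187, 267 and 229 CPM in KO-labelled libraries, against 218, 181, 170 and 171 CPM in controls (log2 fold change 0.29 ± 0.11 SE, edgeR adjusted p = 0.0718). The groups overlapped, and the common form remained by far the more abundant of the pair in every library. With counts divided by exon length, Cox6a2 made up 11.4% ± 1.44 of the pair in KO-labelled libraries (9.96% to 13.3%) and 0.115% ± 0.0616 in controls (SD, n = 4 each).

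Cox8b had 323, 195, 358 and 522 counts in KO-labelled libraries, against 51, 58, 36 and 5 counts in controls, or 15.9, 16.99, 20.2 and 21.9 CPM in KO-labelled libraries and 2.80, 3.15, 2.32 and 0.323 CPM in controls. Every KO-labelled library lay above every control, and control 4 was far below the other controls. The log2 fold change was 3.10 ± 0.32 (SE; edgeR adjusted p = 7.04e-06), or 8.56-fold, and 2.75 (adjusted p = 1.92e-09) without control 4. Per exon length Cox8b made up 8.41% ± 1.21 of its pair with Cox8a in KO-labelled libraries and 1.20% ± 0.707 in controls (SD, n = 4 each). The common form Cox8a averaged 356 ± 64.7 CPM in KO-labelled libraries and 307 ± 33.7 CPM in controls and did not pass the test (log2 fold change 0.21 ± 0.13 SE, edgeR adjusted p = 0.226).

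Cox7a1 had 132, 49, 142 and 171 counts in KO-labelled libraries, against 81, 61, 58 and 11 counts in controls, or 6.495, 4.27, 8.005 and 7.17 CPM in KO-labelled libraries and 4.44, 3.31, 3.74 and 0.711 CPM in controls. KO-labelled library 2 lay below control 1, so the groups overlapped. The log2 fold change was 1.09 ± 0.34 (SE; edgeR adjusted p = 0.0264). The call was lost in 5 of the 16 alternatives (adjusted p of 0.0513 without KO-labelled 1, 0.0769 without KO-labelled 3, 0.0775 without KO-labelled 4, 0.0537 without control 2 and 0.0534 with robust dispersion), and the log2 fold change was 0.77 (adjusted p = 0.00756) without control 4. Its partner Cox7a2 averaged 32.2 ± 5.90 CPM in KO-labelled libraries and 32.9 ± 4.52 CPM in controls (log2 fold change -0.03, adjusted p = 0.895 by edgeR). Per exon length Cox7a1 made up 26.1% ± 3.26 of that pair in KO-labelled libraries (21.9% to 29.8%) and 13.2% ± 5.90 in controls (4.56% to 17.7%; SD, n = 4 each).

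Cox6b2, the testis form, had 15.9, 23.2, 17.02 and 17.9 CPM in KO-labelled libraries, against 39.2, 35.2, 31.5 and 2.91 CPM in controls. Control 4 stood far below every other library, and the other 3 controls lay above every KO-labelled library. Over all libraries the log2 fold change was -0.57 ± 0.45 (SE; edgeR adjusted p = 0.371), and without control 4 it was -0.95 (adjusted p = 2.34e-05). The partner Cox6b1 averaged 18.2 ± 4.39 CPM in KO-labelled libraries and 17.6 ± 4.79 CPM in controls (log2 fold change 0.05, adjusted p = 0.873 by edgeR). Control 4 was thus the lowest of the controls for Cox8b, Cox7a1 and Cox6b2, but not for Cox6a2.

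**Figure D2:**
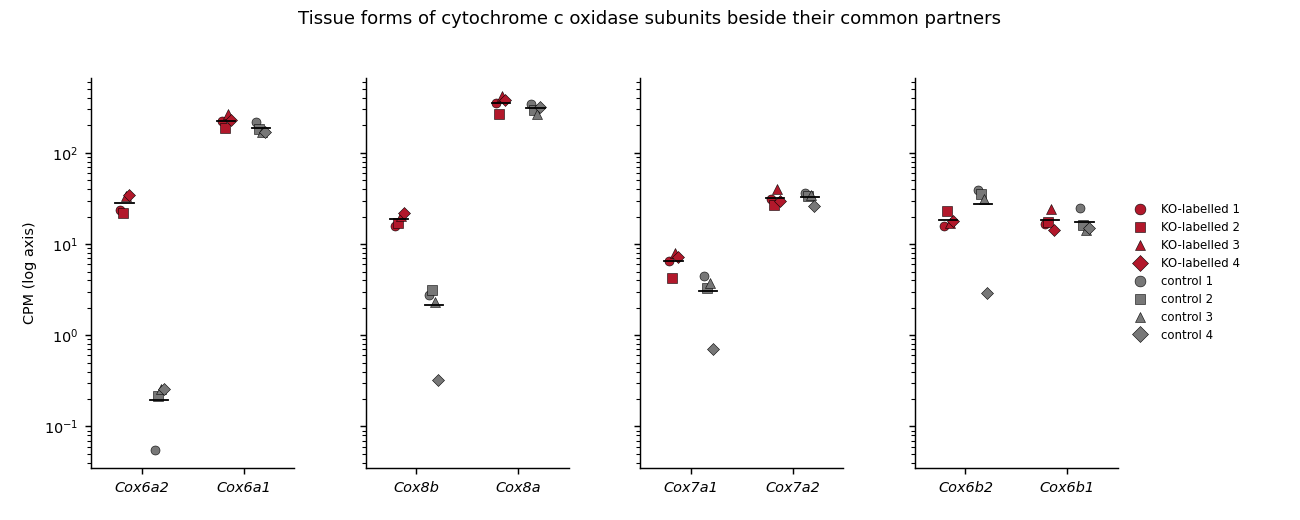
CPM (log axis) of 4 tissue forms of complex IV, each beside its common partner, in the 4 KO-labelled (red) and 4 control libraries (grey); marker shapes give the library number and bars the means. Cox6a2 and Cox8b separate the groups while Cox6a1 and Cox8a overlap, and control 4 (diamond) lies far below the other controls for Cox8b, Cox7a1 and Cox6b2.

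The 4 untested forms were near 0. Cox4i2, the form of lung and of oxygen-sensing cells, had 28 counts in KO-labelled libraries and 12 in controls in all. The testis forms Cox7b2 and Cox8c had 5 and 4 counts in KO-labelled libraries and 5 and 1 in controls. Ndufa4l2, a paralog of the complex IV subunit Ndufa4 that is induced by hypoxia, had 39 counts in KO-labelled libraries and 8 in controls. Its exons overlap those of Shmt2 on the opposite strand, which had 3283 counts in KO-labelled libraries and 844 in controls (log2 fold change 1.84 ± 0.12 SE, edgeR adjusted p = 5.74e-08). The sources used here do not say whether strand was used in counting, so reads of these overlapping genes cannot be told apart.

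The tissues that use these forms were looked for by their markers. Of 18 skeletal and heart muscle markers, 10 were tested, none rose, Myh8, Tnnt1, Des and Myh7 fell and the others were not called. The 18 summed to 31.2 to 43.6 CPM in KO-labelled libraries and 51.7 to 64.9 CPM in controls. Much of these sums came from Myh8 (mean 17.3 CPM in KO-labelled libraries, 32.0 CPM in controls). The muscle-defining genes Myod1 (3 counts in KO-labelled libraries, 20 in controls), Myog (4 and 3) and Ckm (6 and 9) were near 0 in both groups. In the brain, Cox6a2 is known from parvalbumin interneurons. Pvalb had 32 counts in KO-labelled libraries and 28 in controls, Lhx6 12 and 13, and Sst 5 and 1. Of the 5 markers of that list Erbb4 rose and Kcnc1 fell. The 5 summed to 493 to 656 CPM in KO-labelled libraries and 518 to 634 CPM in controls. Nearly all of these sums came from Erbb4 (mean 387 CPM in KO-labelled libraries, 247 CPM in controls) and Kcnc1 (197 and 322 CPM). The testis germ line markers summed to 0.738 to 2.53 CPM in KO-labelled libraries and 1.23 to 2.77 CPM in controls. The brown fat markers summed to 0.784 to 1.18 CPM in KO-labelled libraries and 0.259 to 1.68 CPM in controls, with none called in either list.

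Promoter windows of 4 complex IV genes are shown: the tissue forms Cox8b and Cox7a1, which rose, and the common forms Cox6a1 and Cox8a, which were chosen because they hold a match. They are 300-base windows from RefSeq on GRCm38.p6, 250 bases before to 50 after the start of transcription, on the strand of the gene. For Cox6a2 no window was used here. The windows lie at chr5:115348909-115349208 (minus strand, Cox6a1), chr19:7217567-7217866 (minus strand, Cox8a), chr7:140900397-140900696 (minus strand, Cox8b) and chr7:30183921-30184220 (plus strand, Cox7a1). Capitals mark matches to the element of the respiratory chain regulator NRF1 (GCGCA, any base, GCGC) or to CCGGAAGT, on either strand, the core bound by ETS factors such as GABP.
Cox6a1: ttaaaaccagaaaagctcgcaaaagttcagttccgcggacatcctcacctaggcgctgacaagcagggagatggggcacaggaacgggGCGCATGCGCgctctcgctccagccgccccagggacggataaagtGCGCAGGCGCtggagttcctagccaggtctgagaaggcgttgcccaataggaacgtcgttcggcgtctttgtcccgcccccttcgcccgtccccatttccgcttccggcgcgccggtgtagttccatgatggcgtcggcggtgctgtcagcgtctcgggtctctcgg
Cox8a: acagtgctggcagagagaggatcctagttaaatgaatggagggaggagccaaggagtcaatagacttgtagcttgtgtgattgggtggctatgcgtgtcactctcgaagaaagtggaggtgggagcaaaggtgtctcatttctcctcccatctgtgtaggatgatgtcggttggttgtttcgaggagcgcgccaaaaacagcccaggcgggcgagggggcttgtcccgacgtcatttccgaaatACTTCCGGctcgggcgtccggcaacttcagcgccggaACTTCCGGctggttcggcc
Cox8b: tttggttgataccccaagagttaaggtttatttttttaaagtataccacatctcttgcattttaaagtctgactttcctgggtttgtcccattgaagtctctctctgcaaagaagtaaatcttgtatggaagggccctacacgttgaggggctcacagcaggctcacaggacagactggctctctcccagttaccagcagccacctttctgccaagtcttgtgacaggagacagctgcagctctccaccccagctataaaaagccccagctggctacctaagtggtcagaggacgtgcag
Cox7a1: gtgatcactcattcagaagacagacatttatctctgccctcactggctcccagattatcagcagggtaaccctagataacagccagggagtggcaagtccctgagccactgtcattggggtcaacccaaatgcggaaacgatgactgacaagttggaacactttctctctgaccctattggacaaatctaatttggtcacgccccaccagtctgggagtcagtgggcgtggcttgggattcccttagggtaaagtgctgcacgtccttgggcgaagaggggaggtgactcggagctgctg
The Cox6a1 window holds 2 matches to the NRF1 element and the Cox8a window 2 to the ETS core, while the windows of Cox8b and Cox7a1 hold neither. Cox6a1 and Cox8a were the only complex IV windows of 14 with either element. The window of Cox7a2, the common partner of Cox7a1, holds neither, and nor does that of Cox6b1.

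Promoter windows were found for 66 of the 81 members, in 71 windows because some genes have more than 1 start. With both strands searched, the NRF1 element was in 17 of the 71 (23.9%), against 4.6% of all 32851 windows of the same length in the table. It was in 8 of 33 complex I windows, 2 of 3 of complex II, 1 of 5 of complex III, 1 of 14 of complex IV and 5 of 16 of complex V. The ETS core was in 5 of the 71 (7.04%), against 3.89% of all windows. The element TGATGNAA, which is bound by dimers of C/EBP and ATF factors, was in 0 of the 71 windows and in 3.97% of all. Matches of different elements overlapped each other in 0 places in these windows. A match describes these letters only, and no match says nothing of the factor.

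In complex I, 9 of the 35 members rose, none fell and the median log2 fold change was 0.26; over all genes 16.1% rose and 13.9% fell. By position in the enzyme, 2 of 8 rose in the NADH-oxidising arm, 2 of 8 in the ubiquinone-reducing arm, 4 of 9 in the proximal membrane arm and 1 of 10 in the distal membrane arm, with medians of 0.32, 0.24, 0.32 and 0.15; differences between the arms were not tested. Only Ndufs1 (-0.07) and Ndufb2 (-0.04) had a negative sign.

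Ndufv3, an accessory subunit at the tip of the NADH-oxidising arm, had 216, 203, 249 and 212 CPM in KO-labelled libraries, against 168, 126, 125 and 119 CPM in controls. Every KO-labelled library lay above every control, of which control 1 was the highest. The log2 fold change was 0.71 ± 0.11 (SE; edgeR adjusted p = 0.000303). Ndufa13, an accessory subunit of the proximal membrane arm also known as GRIM-19, had 10.9, 11.6, 14.5 and 11.3 CPM in KO-labelled libraries, against 9.81, 8.14, 7.93 and 8.15 CPM in controls. These too did not overlap (log2 fold change 0.50 ± 0.13 SE, edgeR adjusted p = 0.0113), and Tssk6, whose exons overlap those of Ndufa13 on the opposite strand, had 6 counts in KO-labelled libraries and 6 in controls. Ndufs5, an accessory subunit on the intermembrane side, had 22.6, 20.5, 31.9 and 26.3 CPM in KO-labelled libraries, against 21.9, 18.2, 15.9 and 14.2 CPM in controls. KO-labelled 2 lay below control 1 (log2 fold change 0.53 ± 0.16 SE, edgeR adjusted p = 0.0193). Ndufs5 was called in 13 of 16 alternatives, and the call was lost without KO-labelled 3, KO-labelled 4 or control 3.

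The other 6 complex I members that passed, none of them under all 16 alternatives, had log2 fold changes of 0.29 to 0.41: Ndufb9 and Ndufs8 (both 0.41), Ndufa1 (0.36), Ndufa10 and Ndufv1 (both 0.32) and Ndufa9 (0.29). Ndufv1 carries the flavin that takes electrons from NADH, and Ndufs8 holds iron-sulfur clusters near the ubiquinone site. Of these 6, the groups were apart only for Ndufa10, with 159, 158, 166 and 154 CPM in KO-labelled libraries, against 148, 126, 124 and 110 CPM in controls (adjusted p = 0.0186 by edgeR). The core subunit Ndufs1, which holds iron-sulfur clusters of the NADH arm, had a log2 fold change of -0.07 with an interval that did not reach 0.5 on either side, and it did not pass the test (adjusted p = 0.606 by edgeR).

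None of the 4 subunits of complex II, succinate dehydrogenase, passed the test, and their median log2 fold change was 0.04. The flavoprotein Sdha averaged 833 ± 25.5 CPM in KO-labelled libraries and 781 ± 57.4 CPM in controls (log2 fold change 0.09, SE 0.08). The iron-sulfur subunit Sdhb had a log2 fold change of 0.28 ± 0.12 (SE; edgeR adjusted p = 0.0985). The membrane anchors Sdhc and Sdhd were at -0.02 and -0.26.

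In complex III 1 of 8 members rose, against 16.1% of all genes. Uqcrq, a small subunit near the ubiquinone-binding site, had 30.7, 29.0, 38.4 and 29.8 CPM in KO-labelled libraries, against 19.2, 14.8, 15.2 and 10.3 CPM in controls. The lowest KO-labelled library stood well above the highest control (log2 fold change 1.10 ± 0.16 SE, edgeR adjusted p = 0.000145). The other 7 members had log2 fold changes of -0.29 (Uqcrh, the hinge subunit) to 0.27 (Uqcr10), and none passed. The core protein Uqcrc1 was at 0.19 and the Rieske iron-sulfur protein Uqcrfs1 at -0.09, with adjusted p of 0.202 and 0.639 by edgeR.

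Outside the tissue forms, 2 of 12 complex IV members rose, a share close to the 16.1% of all genes. Cox4i1, the common form of a regulatory subunit, had 144, 130, 180 and 156 CPM in KO-labelled libraries, against 147, 118, 108 and 101 CPM in controls (log2 fold change 0.36 ± 0.13 SE, edgeR adjusted p = 0.0422). Cox5b, a zinc-binding subunit, had 70.8, 74.1, 91.9 and 79.4 CPM in KO-labelled libraries, against 73.2, 64.9, 50.04 and 52.4 CPM in controls (log2 fold change 0.39 ± 0.13 SE, edgeR adjusted p = 0.0301). Cox4i1 was called in 8 of 16 alternatives and Cox5b in 12. In both genes control 1 lay within the KO-labelled range. Cox5a, the subunit next to it, was at 0.10 and did not pass (adjusted p = 0.766 by edgeR).

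In ATP synthase, none of 14 members rose and 1 fell, against 16.1% and 13.9% of all genes. Atp5a1, the alpha subunit of the catalytic head and the most abundant member per exon length in the controls, had 1933, 1510, 1968 and 1711 CPM in KO-labelled libraries, against 2450, 2336, 2284 and 2317 CPM in controls. Every KO-labelled library lay below every control (log2 fold change -0.40 ± 0.10 SE, edgeR adjusted p = 0.00642). Its partner in the head, the beta subunit Atp5b, had 1239, 1088, 1327 and 1154 CPM in KO-labelled libraries, against 1213, 1073, 1007 and 938 CPM in controls; the groups overlapped, and it did not pass (0.18, SE 0.10, adjusted p = 0.185 by edgeR). The central stalk subunit Atp5c1 was at 0.03. The 3 genes for the same c-ring subunit, Atp5g1, Atp5g2 and Atp5g3, were at 0.17, 0.13 and -0.15, and none passed.

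**Figure D3:**
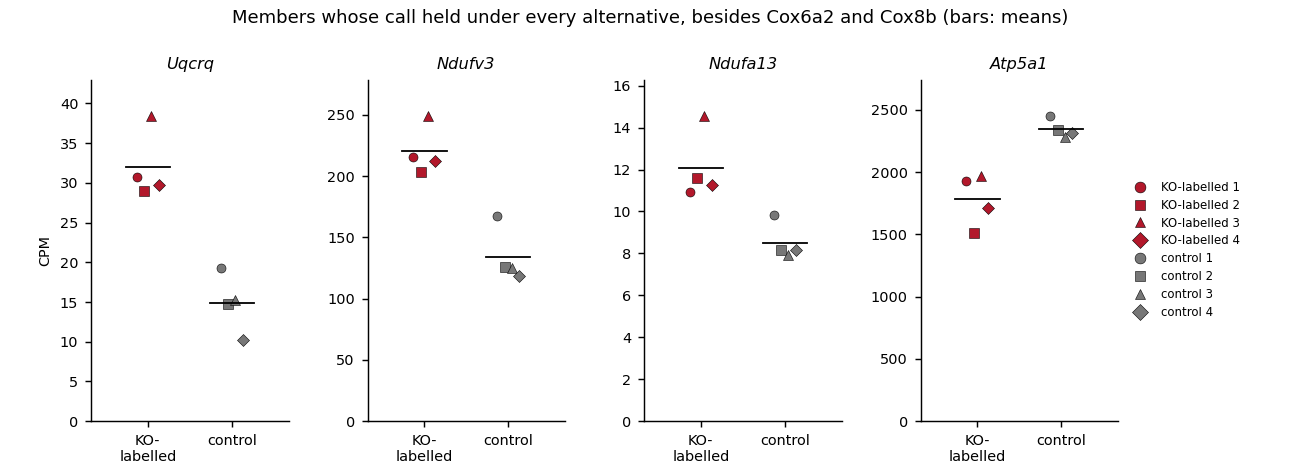
CPM per library of Uqcrq, Ndufv3, Ndufa13 and Atp5a1 in 4 KO-labelled (red, left) and 4 control libraries (grey, right), with bars at the means; these 4, with Cox6a2 and Cox8b, were called under all 16 alternatives. The first 3 genes lie above the controls in every KO-labelled library and Atp5a1 lies below them.

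Summed over a complex, the members of complex I gave 3176 ± 420 CPM in KO-labelled libraries and 2606 ± 321 CPM in controls, and those of complex IV 1392 ± 215 and 1171 ± 130 CPM (SD, n = 4 each). Complex II gave 1134 ± 38.0 CPM in KO-labelled libraries and 1084 ± 96.5 CPM in controls, and complex III 2124 ± 282 and 2096 ± 316 CPM. Complex V gave 4118 ± 449 CPM in KO-labelled libraries and 4499 ± 300 CPM in controls, and all 81 together 11943 ± 1374 and 11456 ± 1136 CPM. The sums were not tested; the sum of complex V is led by Atp5a1.

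Of the 16 called members, 6 passed under all 16 alternatives of the test: Cox6a2, Cox8b, Uqcrq, Ndufv3, Ndufa13 and Atp5a1. The other 10 were lost in at least 1. Ndufa9, Ndufa1 and Ndufb9 were called in 7 of the 16 alternatives and Cox4i1 in 8; all 4 were lost with RLE and with upper-quartile scaling, and the first 3 also with the replicate block. The number of members that rose was 15 over all libraries, 6 without KO-labelled 3, 6 without KO-labelled 4, 7 without control 2, 6 without control 3, 9 without control 4 and 27 without control 1. The number that fell was 1, and 5 without control 4, where Sdhd, Uqcrh, Cox6b2 and Atp5g3 joined Atp5a1. In complex I the 9 that rose were 3 without KO-labelled 3, KO-labelled 4 or control 2, 2 without control 3, 5 without control 4 and 15 without control 1; without control 1, 1 member of complex II and 3 of complex V also rose. The median log2 fold change of the tested members was 0.28 without control 1, 0.11 without KO-labelled 3 and 0.10 without control 4.

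**Figure D4:**
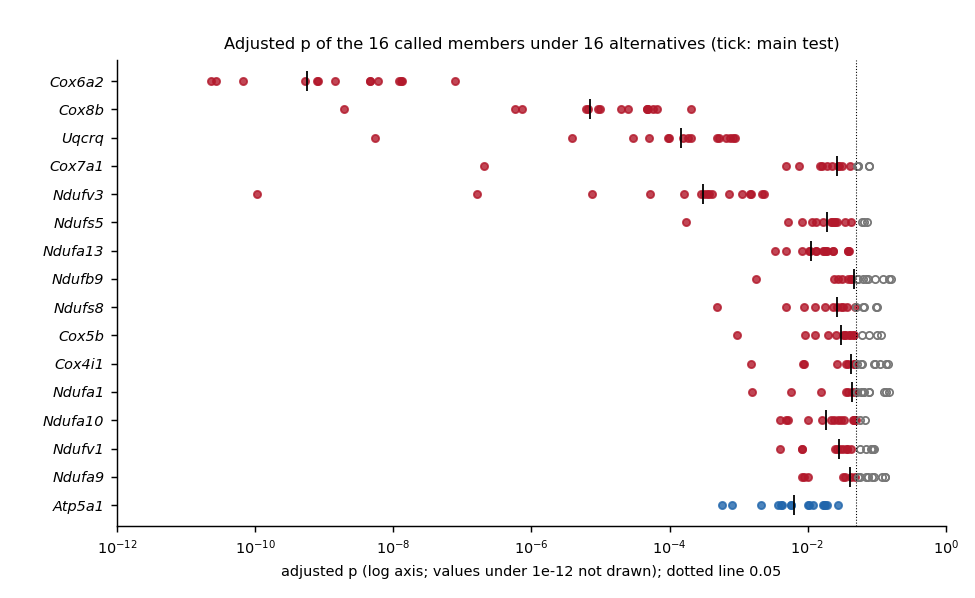
Adjusted p (log axis) of the 16 called members in the test over all libraries (tick) and under 16 alternatives (points), ordered by log2 fold change; filled points passed 0.05 (dotted line), open points did not, and the smallest values lie off the axis. The rows of Cox6a2, Cox8b, Uqcrq, Ndufv3, Ndufa13 and Atp5a1 have no open point.

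The members moved together from library to library within each group. KO-labelled 3 was the highest of its group for 68 of the 77 tested members and KO-labelled 2 the lowest for 54; control 1 was the highest of the controls for 66 and control 4 the lowest for 53. Against the control mean, the median log2 level of the members was 0.14, 0.01, 0.41 and 0.21 in KO-labelled libraries 1 to 4 and 0.22, 0.04, -0.08 and -0.21 in controls 1 to 4, where the median of all genes was within 0.02 of 0 in each library. The medians of the groups overlapped, control 1 standing above KO-labelled 1, 2 and 4.

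The members are short genes, with a median exon length of 1569 bases against 4693 for other tested protein-coding genes, and short genes moved between libraries in a like order. Among genes under 1000 bases with a mean of at least 5 CPM, KO-labelled 3 was at 0.53 for 19 members and 0.29 for 163 other genes, KO-labelled 2 at -0.06 and -0.20, and control 1 at 0.20 and 0.17. Control 4 stood apart from this order, at -0.22 for the members and 0.04 for the other genes. The median log2 fold change was 0.27 for these members and 0.07 for the other genes, and in genes of at least 1000 and under 2000 bases 0.23 for 29 members and 0.08 for 779 others. In genes of 4000 bases or more it was 0.12 for 10 members, none of them called, and -0.01 for 6088 others. The part of gene length in the small positive differences was not tested.

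**Figure D5:**
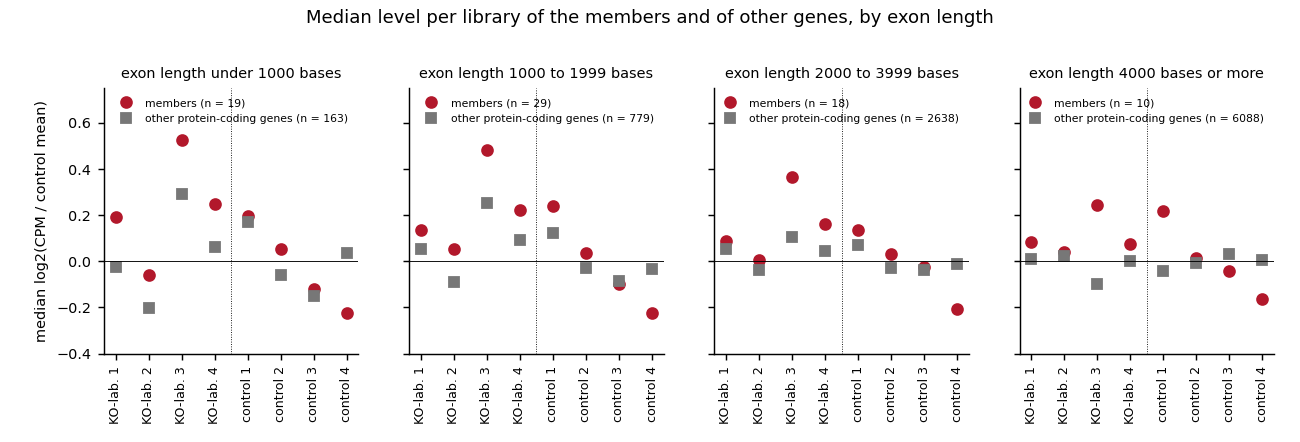
Median log2 level against the control mean in each library (KO-labelled 1 to 4, then controls 1 to 4) of the members (red circles) and of other protein-coding genes (grey squares), in 4 classes of exon length. KO-labelled 3 is the highest library for members in every class, and it is also the highest for the other genes in 3 of the 4 classes, all but the longest.

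Near-identical copies and overlaps bear on these counts. Many of the genes have processed pseudogenes, and the sources used here do not say how shared reads were counted. The exons of 28 members overlap another gene. Of the 27 tested among them 6 were called, against 10 of 50 without an overlap and 30% of all genes tested. The part of overlaps in the calls was not tested. Atp5a1 overlaps Haus1 on the opposite strand, which had a log2 fold change of 0.01. The 3 X-linked members were Ndufa1, which rose by 0.36 (adjusted p = 0.0432 by edgeR), and Ndufb11 (0.27) and Cox7b (0.03), which did not pass. Of all 527 tested genes on the X chromosome, 71 rose and 101 fell, with a median of -0.06.

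Genes that serve the chain but are not part of the 81 were read from the same test. The 13 subunits encoded in mitochondrial DNA were listed at 0 counts in every library, so they give no level. Of 6 further genes for subunits or related factors that the rule leaves out, 1 rose, Atp5s (0.65, adjusted p = 0.0402 by edgeR). Atp5s encodes a factor related to ATP synthase and was called in 8 of 16 alternatives. Of 49 assembly factors 47 were tested, 9 rose and none fell, against 16.1% and 13.9% of all genes, with a median log2 fold change of 0.16.

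The complex I assembly factors held 5 of the 9, of which Acad9 (0.24) was called in only 2 of 16 alternatives. Ndufaf3, which acts early in building the ubiquinone-reducing arm, averaged 29.4 ± 1.59 CPM in KO-labelled libraries and 16.2 ± 3.24 CPM in controls (log2 fold change 0.86 ± 0.14 SE, edgeR adjusted p = 0.000273). Nubpl, which delivers iron-sulfur clusters to the complex, averaged 42.0 ± 5.73 CPM in KO-labelled libraries and 28.2 ± 0.461 CPM in controls (0.58, SE 0.11, adjusted p = 0.000906). The membrane arm factors Timmdc1 and Foxred1 rose by 0.42 each. Every KO-labelled library lay above every control for all 4. In complex II Sdhaf4 rose by 0.43, and in complex III 3 of 6 factors rose: Lyrm7, which helps insert the Rieske protein (0.67, adjusted p = 0.00194 by edgeR), Ttc19 (0.40) and Uqcc3 (0.36, called in 7 of 16 alternatives).

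None of the 20 tested complex IV factors passed. The most abundant, Coa5 and the haem A synthesis enzyme Cox15, had log2 fold changes of 0.04 and 0.20 (adjusted p = 0.758 and 0.0928 by edgeR). None of the 3 ATP synthase factors passed either, with Atpaf2 at 0.11 and Tmem70 at 0.16. With limma voom, run with quality weights for the libraries, 5 complex IV factors rose, and with no filter 3 did. Without KO-labelled 2 the number was 4 and without control 1 it was 1.

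Among 17 tested electron carriers and enzymes of ubiquinone synthesis, 5 rose and 1 fell, against 16.1% and 13.9% of all genes. Etfb, a subunit of the flavoprotein that feeds electrons from fatty acid oxidation, averaged 8.30 ± 1.33 CPM in KO-labelled libraries and 5.15 ± 1.18 CPM in controls (log2 fold change 0.69 ± 0.18 SE, edgeR adjusted p = 0.00903). The ubiquinone-binding protein Coq10a rose by 0.50 and Coq9, needed for ubiquinone synthesis, by 0.48, while Pdss1, which makes the isoprenoid tail, fell by 0.43. Of 13 citrate cycle genes, 2 rose and 1 fell, no larger shares than those of all genes. Among them, Dld, a subunit shared by the 2-oxoacid dehydrogenase complexes, rose (0.33), and Idh3a, the catalytic subunit of the NAD-dependent isocitrate dehydrogenase, fell (-0.39).

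Of 22 genes for mitochondrial biogenesis and mitochondrial DNA expression, 4 rose and 3 fell, shares close to those of all genes (16.1% and 13.9%). Tfb1m, which methylates mitochondrial ribosomal RNA, averaged 18.5 ± 2.77 CPM in KO-labelled libraries and 11.4 ± 1.49 CPM in controls (log2 fold change 0.70 ± 0.14 SE, edgeR adjusted p = 0.00135). Gabpb1, a subunit of the ETS factor GABP, averaged 14.6 ± 1.33 CPM in KO-labelled libraries and 21.9 ± 3.29 CPM in controls (-0.58, SE 0.13, adjusted p = 0.00302). Mterf2 and Mterf3, of a family that binds mitochondrial DNA or ribosomal RNA, rose by 0.50 and 0.35; Mterf2 was called in 7 of 16 alternatives and Mterf3 in all 16. The 9 assembly factors that rose were 5 without KO-labelled 4 or control 3, and 1 fell without control 3. The 4 biogenesis genes that rose were 2 without KO-labelled 1, KO-labelled 4 or control 1, and no citrate cycle gene rose without KO-labelled 1, KO-labelled 4 or control 2, 3 or 4. Of the 26 genes called in these lists, 10 passed under all 16 alternatives, among them Ndufaf3, Nubpl, Timmdc1, Lyrm7, Etfb, Coq10a, Mterf3, Tfb1m and Gabpb1.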

How the data were processed

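RNA-seq counts per gene were analysed for 8 libraries. The deposited table holds whole-number counts; per the submitters' processing notes CASAVA, HTSeq 0.6.1p1 and the builds mm9 and NCBIM37 were used. For the aligner and strand setting, nothing is given in the sources used here. Members, lists and tests were chosen with earlier results of these data known. After filterByExpr and TMM scaling, tests used edgeR 4.0.16 (quasi-likelihood, not robust, R 4.3.3; Benjamini-Hochberg, threshold 0.05; 15021 genes tested). The SE is the log2 fold change divided by the square root of F. The code was tested on simulated data. Alternatives were RLE and upper-quartile scaling, robust dispersion, no filter, at least 1 CPM in 4 libraries, a replicate block and leaving out each library. The others were DESeq2 1.42.0, run without the filter, and limma voom 3.58.1, run with quality weights for the libraries. No pair of libraries agreed within sampling noise.

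Exon lengths came from GENCODE on GRCm38. Named are members past the threshold with an absolute log2 fold change of at least 0.5, isoform sets, X-linked and core members, and up to 4 called genes per list outside the 81; the rest of the named genes were chosen after their values were seen, as was the description by exon length. Of the other marker lists, 2 of 6 neuron markers rose and 1 fell, and no erythroid marker was called. The chromosome 18 promoter windows are not printed. Some genes that the rule takes are counted but not reported here by name.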

Additional observations from a re-analysis of the deposited data

Results flagged for a closer look

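Across 98 groups of 4 libraries, which cover the members named by the rule or called and the summed level of each complex, not every member, the highest or lowest library stood apart from the other 3 by Dixon's test in 6; chance flags about 1 in 20 groups. Ndufv3 had 168 CPM in control 1, above the other controls, and Ndufa13 had 9.81 CPM and Atp5g1 84.5 CPM in the same library. Ndufa11 had 22.3 CPM in KO-labelled 1, below the other KO-labelled libraries. Cox8c had counts in 1 library of each group, 0.348 CPM in KO-labelled 2 and 0.0543 CPM in control 2.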

How the results depend on the processing

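Over all genes the number called was 4499, and 3250 to 4625 when 1 library was left out. The number of members that rose (15) was 23 with limma voom and 28 with no filter on low counts, and ran between 6 and 27 when 1 library was left out; the number that fell (1) was 2 with each of these settings and ran between 1 and 5. The cause was not tested. RLE and upper-quartile scaling gave 11 that rose, DESeq2 17. The median log2 fold change of all genes was -0.19 with DESeq2 and -0.13 with no filter. Both were run without the filter on low counts, so these medians also cover genes that the main test leaves out. With DESeq2 the signs of the tested members stayed at 63 positive and 14 negative. The sign turned, with no call on either side, for Cox7b (-0.0038 with upper-quartile scaling), Atp5c1 (-0.0137 with upper-quartile scaling, -0.0727 with limma voom) and Cox7a2 (0.0328 with no filter). When 1 library was left out, the log2 fold change ran between -0.1623 and 0.0388 for Cox7a2, -0.0775 and 0.3141 for Cox5a, -0.1343 and 0.2564 for Cox6b1, -0.042 and 0.1217 for Cox7b, -0.0998 and 0.1254 for Atp5c1, and -0.0283 and 0.3314 for Atp5g2.

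Whether replicate numbers pair the libraries is not settled here. After group means were taken off, the correlations of same-numbered libraries were 0.16, 0.20, -0.20 and 0.04. The same-numbered control had the highest correlation of the controls for KO-labelled 1, 2 and 4 and the lowest for KO-labelled 3. Pairing was not tested. With the replicate block 13 members rose, 1 fell and 4177 genes were called. The 4 untested members had too few counts for the test, and the 13 mitochondrially encoded genes give no value.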
